A study of Homo sapiens with 9 samples.

Results

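Genes for 10 enzymes that make, interconvert or degrade androgens were followed through 9 RNA sequencing libraries of LNCaP, an established androgen-responsive line of human prostate cancer epithelium. The genes, taken as a list of symbols from the 60880 gene rows of each library, were SRD5A1, SRD5A3, HSD3B1, AKR1C3, STS, HSD17B6, HSD17B10, HSD17B11, HSD17B14 and CYP3A5. All 10 had a row in all 9 libraries, and 9 of them carried enough counts to be tested. The libraries fell into 3 groups of 3: UGT2B28 rescue cells (LNCaP KD4OE), UGT2B28 knockdown cells (LNCaP KD4) and control cells (LNCaP NT). All were labelled with a time of 24 h and grown in the same serum-supplemented medium. Puromycin selection is given for knockdown and G418 selection for rescue, and none is named for control, so the antibiotic and the construct cannot be told apart. Only 1 knockdown line, KD4, was sequenced, and the rescue carries its name. Whether replicates came from separate cultures is not stated, and the p-values therefore reflect variation among libraries that could be purely technical. In these bulk libraries, fewer cells of a kind and less RNA per cell cannot be told apart.

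Androgens reach prostate cells either as testosterone or as weaker adrenal precursors, among them the sulphate of dehydroepiandrosterone (DHEA). Steroid sulphatase removes the sulphate, a hydroxysteroid dehydrogenase of the HSD3B type converts DHEA to androstenedione, AKR1C3 reduces androstenedione to testosterone, and the steroid reductases of the SRD5A type make dihydrotestosterone, the most potent natural androgen. Enzymes of the HSD17B type mostly run the oxidative steps, some of which restore dihydrotestosterone from its diol metabolite while others inactivate hormones, and cytochromes of the CYP3A type hydroxylate testosterone for disposal. UGT2B28, the gene targeted in the study, belongs to the enzymes that attach glucuronic acid to steroids at the end of this route.

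UGT2B28 itself had 1124, 1554 and 1857 counts in rescue, 17, 8 and 1 in knockdown and 25, 4 and 10 in control. Rescue lay far above both other groups, while knockdown and control overlapped (log2 fold change −0.60, SE 0.62, adjusted p = 0.52, and a log2 fold change of 0.16 without control replicate 1), so a lower level in the libraries labelled knockdown was not detectable at this depth. Gene counts summed to 20300744 to 26459528 per library. Control replicate 1 stood apart from the other controls: the chi-square per gene between replicates was 21.77 and 18.16 for its pairs, against 5.04 to 11.19 for all other pairs within groups. Values without it are given where they change a call of a member or a named pathway gene, or move such a called value by over 1.5 times. The luminal prostate markers KRT8, KRT18, KLK3, FOLH1 and HOXB13 had counts in all 9 libraries. KLK3, the gene of prostate-specific antigen, averaged 4400 ± 283 CPM (counts scaled to the library's gene total and composition) in rescue, 3750 ± 151 CPM in knockdown and 1430 ± 141 CPM in control (SD, n = 3 each), while KRT8 averaged 871 ± 42.4 CPM in rescue, 1060 ± 79.4 CPM in knockdown and 1010 ± 17.2 CPM in control. KRT8 was lower in rescue than in knockdown (log2 fold change −0.29, adjusted p = 0.014) and than in control (−0.21, adjusted p = 0.026). KLK3 was higher in rescue than in control (1.63, adjusted p = 5.8e-15) and was not called against knockdown (0.23, adjusted p = 0.081). The part of these and the following marker differences in the comparisons was not tested. Of 5 adrenocortical markers 3 were at 0 in all libraries (CYP11B1, CYP11B2 and MC2R), and the 5 summed to at most 0.245 CPM in rescue, 0.343 in knockdown and 0.556 in control. The hepatocyte markers summed to 3.13 to 3.85 CPM in rescue, 1.29 to 1.60 in knockdown and 1.95 to 2.92 in control, with APOA2 at 0. Most of this sum was CYP2E1 (3.52 ± 0.394 CPM in rescue, 1.46 ± 0.157 CPM in knockdown and 2.19 ± 0.516 CPM in control). CYP2E1 was higher in rescue than in knockdown (log2 fold change 1.27, adjusted p = 0.0044). ALB had 0, 1 and 0 counts in rescue, 0 in every knockdown library and 4, 15 and 4 in control. Basal markers summed to 2.94 to 4.71 CPM in rescue, 3.36 to 5.47 in knockdown and 1.53 to 2.78 in control, and KRT14 was higher in knockdown than in control (log2 fold change 1.22, adjusted p = 0.0017). Markers of fibroblasts, endothelium and leukocytes summed to 66.8 to 78.8 CPM in rescue, 52.1 to 61.3 in knockdown and 68.6 to 77.6 in control. Most of this sum was COL1A1 (63.1 ± 6.61 CPM in rescue, 48.3 ± 5.30 CPM in knockdown and 68.1 ± 5.36 CPM in control). Among these markers VWF was higher (1.23, adjusted p = 0.00012) and COL1A1 (−0.50, adjusted p = 0.00018) and COL3A1 (−3.33, adjusted p = 0.0053) were lower in knockdown than in control, with the leukocyte gene PTPRC at 0. Mitochondrially encoded genes took 3.19% to 3.86% of gene counts in rescue, 2.56% to 2.89% in knockdown and 4.64% to 5.68% in control.

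Per kilobase of exon, the 10 genes covered a wide range of levels, and their order was much the same in all 3 groups. HSD17B10, a mitochondrial dehydrogenase that oxidises steroids and branched-chain metabolites and is also a subunit of mitochondrial RNase P, was the most abundant, at 23.5 to 30.6 CPM per kb in rescue, 28.0 to 33.9 in knockdown and 15.3 to 21.6 in control. SRD5A3, which besides steroid reduction makes the dolichol needed for protein N-glycosylation, had 11.3 to 12.4 CPM per kb in rescue, 11.3 to 12 in knockdown and 9.06 to 10.5 in control. HSD17B14, a cytosolic enzyme that oxidises oestradiol and androstenediol, had 7.54 to 9.29 CPM per kb in rescue, 9.55 to 10.9 in knockdown and 10.6 to 12.7 in control. It thus ranked below SRD5A3 in rescue and knockdown and above it in control, without overlap of the libraries in any group. SRD5A1 came next, at 5.15 to 6.02 CPM per kb in rescue, 4.58 to 5.33 in knockdown and 3.62 to 4.28 in control.

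The other 6 genes were expressed at low levels. HSD17B11, which oxidises androstanediol to androsterone and sits on lipid droplets, averaged 1.29 CPM per kb in rescue, 1.64 in knockdown and 1.07 in control, and HSD17B6, which can return androstanediol to dihydrotestosterone, averaged 1.51 CPM per kb in rescue, 1.70 in knockdown and 0.913 in control. Their libraries overlapped in every group, so these neighbours were not ordered beyond their spread. CYP3A5 averaged 0.352 CPM per kb in rescue, 0.377 in knockdown and 0.539 in control. STS averaged 0.369 CPM per kb in rescue, 0.171 in knockdown and 0.210 in control, overlapping CYP3A5 and AKR1C3 in rescue and AKR1C3 in knockdown. AKR1C3 averaged 0.152 CPM per kb in rescue, 0.0758 in knockdown and 0.064 in control, from 3 to 22 counts per library. HSD3B1 had 0 counts in all 9 libraries, which allows up to 0.112 to 0.147 CPM per library (3 counts, counting error only).

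**Figure D1:**
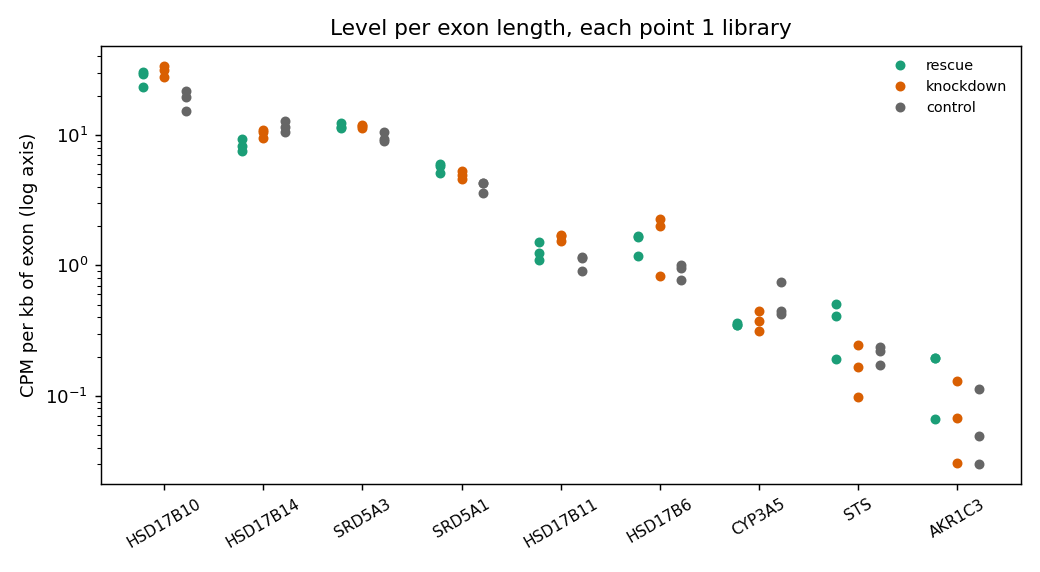
Level of the 9 detected androgen enzyme genes in CPM per kilobase of merged exon (log axis), each point 1 library, with rescue, knockdown and control from left to right for each gene. HSD17B10 lies highest (15.3 to 33.9) and AKR1C3 lowest (0.03 to 0.195), and HSD3B1 is left out because it had 0 counts throughout.

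Exact windows of 100 bases shared with a related or overlapping gene were a small share of the members' sequence. Shorter or inexact matches were not counted. Of the distinct windows of 100 bases in AKR1C3 transcripts, 1.75% were found letter for letter in another gene, mostly AKR1C2, and for HSD3B1 and CYP3A5 the share was 0.17% each, in HSD3B2 and CYP3A4. For SRD5A3 it was 2.24%, in the antisense gene SRD5A3-AS1, and for HSD17B6 1.25%, in PRIM1, a DNA primase subunit on the opposite strand. For HSD17B11 it was 0.792%, in AC108516.2 on the same strand. For SRD5A1, HSD17B10, HSD17B14 and STS no such window was shared. Exon overlap with the opposite strand covered 198 of the 4420 exon bases of SRD5A3 and 132 of the 2272 of HSD17B6. The strand setting of the counting is not given in the sources used here, so reads of SRD5A3 and SRD5A3-AS1, or of HSD17B6 and PRIM1, cannot be told apart where their exons overlap.

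The promoters of the 3 members called higher in both rescue and knockdown than in control are shown beside that of the silent HSD3B1, as the 250 bases before the start site from RefSeq (GRCh38.p14), with matches to 3 short motifs in capitals. The motifs, searched on both strands, were the GC box GGGCGG, the CCAAT box CCAAT and the TATA box TATAAA, and none overlapped another in these 4 windows. The positions are chrX:53434377-53434626 (minus strand) for HSD17B10, chr5:6633190-6633439 (plus strand) for SRD5A1, chr4:55345992-55346241 (plus strand) for SRD5A3 and chr1:119506953-119507202 (plus strand) for HSD3B1.
HSD17B10: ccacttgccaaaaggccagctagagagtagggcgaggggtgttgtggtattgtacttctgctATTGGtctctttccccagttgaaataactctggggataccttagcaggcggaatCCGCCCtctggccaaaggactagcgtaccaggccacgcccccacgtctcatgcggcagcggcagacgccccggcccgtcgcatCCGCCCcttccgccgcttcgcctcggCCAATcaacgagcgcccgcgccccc
SRD5A1: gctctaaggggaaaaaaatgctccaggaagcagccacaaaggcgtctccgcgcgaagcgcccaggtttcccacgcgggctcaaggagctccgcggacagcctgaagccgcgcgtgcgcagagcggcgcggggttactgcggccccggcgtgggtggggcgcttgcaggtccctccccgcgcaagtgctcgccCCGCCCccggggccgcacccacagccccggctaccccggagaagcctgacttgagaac
SRD5A3: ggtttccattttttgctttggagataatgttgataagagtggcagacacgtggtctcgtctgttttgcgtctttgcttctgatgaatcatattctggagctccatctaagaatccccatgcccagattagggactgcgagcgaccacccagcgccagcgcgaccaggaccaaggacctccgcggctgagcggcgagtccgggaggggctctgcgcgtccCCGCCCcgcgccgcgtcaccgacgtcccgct
HSD3B1: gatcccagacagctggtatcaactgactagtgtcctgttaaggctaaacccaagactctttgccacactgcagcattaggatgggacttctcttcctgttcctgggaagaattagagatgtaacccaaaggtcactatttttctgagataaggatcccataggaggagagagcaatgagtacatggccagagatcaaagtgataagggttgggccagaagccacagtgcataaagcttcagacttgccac
HSD17B10 held 2 GC boxes, whose first bases lay 134 and 51 bases before the start site, and 2 CCAAT boxes, at 188 and 25 bases. SRD5A1 and SRD5A3 held 1 GC box each, at 58 and 31 bases, and HSD3B1 held none of the 3 motifs. Over all 35116 windows of the table, 42.6% held a GC box, 32.0% a CCAAT box and 10.7% a TATA box. The androgen receptor half-site was held by 12.4% and the androgen response element by 1 window. The GC content was 63.2% for HSD17B10, 70.8% for SRD5A1, 59.6% for SRD5A3 and 46.8% for HSD3B1, against a median of 58.0% for all windows. The table held windows for 8 of the 10 genes.

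Knockdown was compared with control to ask how the androgen enzymes stood after UGT2B28 was targeted. HSD17B10, HSD17B6, SRD5A1 and SRD5A3 were higher in knockdown, none of the 9 tested members was lower, and none of the 4 reached a 2-fold difference. HSD17B10 stood at 1.65 times its control level, HSD17B6 at 1.85 times and both reductases at about 1.2 times. Across all 18389 genes tested, 32.1% were called in this comparison, 16.5% as higher and 15.6% as lower, and 7.86% were called and at least 2-fold apart. The median absolute log2 fold change was 0.29 for the members and 0.29 for all genes, and 4 of 9 members were called. With sign, the median was 0.28 for the members and 0.01 for all genes. Of the luminal markers named above, KLK3 differed most between the same groups (log2 fold change 1.39, SE 0.086, adjusted p = 2.1e-13). KRT18 (0.26, adjusted p = 0.0064), FOLH1 (0.41, adjusted p = 3.8e-05) and HOXB13 (0.45, adjusted p = 2.2e-05) were higher in knockdown by less. KRT8 was not called (0.07, adjusted p = 0.52). The part of these markers in the calls of members was not tested. The count of 4 fell to 1 without knockdown replicate 2 or control replicate 3, with HSD17B10 the gene left, and to 2 without knockdown replicate 3. It was 3 without control replicate 1 or control replicate 2, and 3 with library totals in place of composition scaling or with limma voom.

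**Figure D2:**
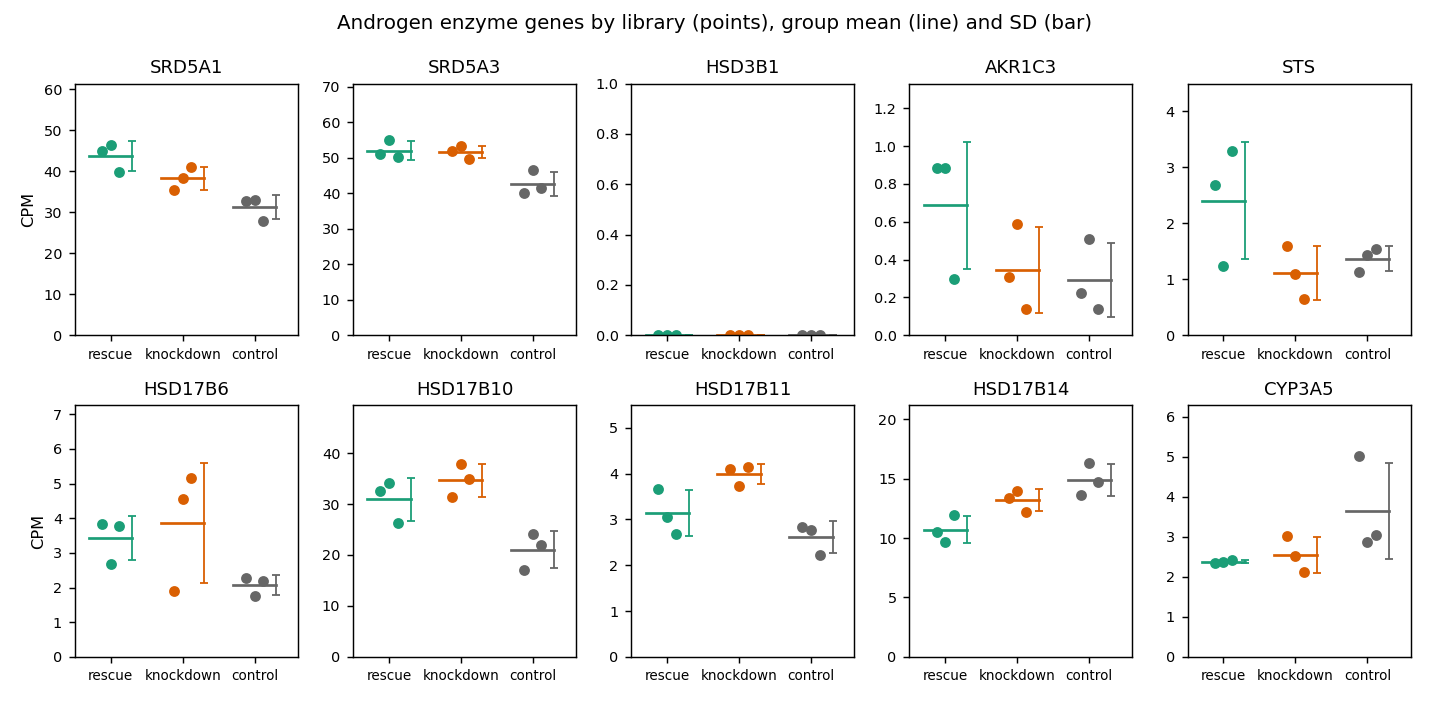
CPM of each androgen enzyme gene in the 3 rescue, 3 knockdown and 3 control libraries (points), with the group mean (line) and SD (bar), each panel on its own linear axis from 0. HSD17B10 is higher in all rescue and knockdown libraries (26.2 to 37.8 CPM) than in any control library (17.1 to 24.1 CPM), and HSD3B1 is at 0 in every library.

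HSD17B10 had the most stable difference. It had 821, 900 and 759 counts in knockdown and 457, 520 and 482 in control, or 34.7 ± 3.28 CPM in knockdown and 21.0 ± 3.59 CPM in control (SD, n = 3 each). Every knockdown library lay above every control library. The log2 fold change was 0.72 (SE 0.12, 95% interval 0.47 to 0.98, adjusted p = 4.5e-05), it stayed between 0.59 and 0.83 when any 1 library was left out, and each of those fits called it.

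The SRD5A reductases were higher by less. SRD5A1 had 928, 911 and 895 counts in knockdown and 876, 712 and 615 in control, or 38.3 ± 2.90 CPM in knockdown and 31.2 ± 2.88 CPM in control. SRD5A3 had 1362, 1266 and 1083 counts in knockdown and 1071, 1002 and 912 in control, or 51.6 ± 1.72 CPM in knockdown and 42.6 ± 3.38 CPM in control. After scaling, neither gene's groups overlapped. On the log2 scale SRD5A1 was higher by 0.29 (SE 0.10, adjusted p = 0.027) and SRD5A3 by 0.28 (SE 0.089, adjusted p = 0.017). The SRD5A1 call did not survive leaving out knockdown replicate 2 (adjusted p = 0.06), knockdown replicate 3 (0.12) or control replicate 3 (0.16), and with library totals (0.061). SRD5A3 lost it without knockdown replicate 2 (0.06), control replicate 1 (0.071) or control replicate 3 (0.067). SRD5A3-AS1, whose exons overlap those of SRD5A3 over 198 bases, had a log2 fold change of 0.33 (adjusted p = 0.051), so the gene and its antisense neighbour had differences of like size, and the part of shared reads was not tested. SRD5A2, the main reductase of normal prostate, had 1 count in all 9 libraries together.

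HSD17B6 had 50, 108 and 112 counts in knockdown and 61, 38 and 48 in control, or 3.86 ± 1.72 CPM in knockdown and 2.07 ± 0.275 CPM in control. Knockdown replicate 1 lay within the control range, and the other knockdown libraries lay above it. The log2 fold change was 0.89 (SE 0.31, adjusted p = 0.027). The call was lost without knockdown replicate 2 (adjusted p = 0.12), knockdown replicate 3 (0.18), control replicate 2 (0.089) or control replicate 3 (0.055), and with limma voom (0.12). PRIM1, which overlaps HSD17B6 over 132 exon bases, had a log2 fold change of 0.36 (adjusted p = 0.098). HSD17B11 had 108, 89 and 90 counts in knockdown and 76, 60 and 49 in control, or 4 ± 0.223 CPM in knockdown and 2.62 ± 0.341 CPM in control. Its groups did not overlap, as was the case for 42.5% of all genes tested, and its log2 fold change of 0.61 (SE 0.25, 95% interval 0.10 to 1.12, adjusted p = 0.06) did not pass.

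The remaining members were not called between knockdown and control. HSD17B14 was at 13.2 ± 0.896 CPM in knockdown and 14.9 ± 1.38 CPM in control (log2 fold change −0.17, 95% interval −0.45 to 0.11). CYP3A5 had 79, 60 and 46 counts in knockdown and 134, 62 and 67 in control, which gave −0.52 on the log2 scale (SE 0.27, adjusted p = 0.16), a value that was −0.21 without control replicate 1. STS, with 42, 26 and 14 counts in knockdown and 30, 31 and 34 in control, had a log2 fold change of −0.28 (95% interval −1.12 to 0.56). AKR1C3, with 8, 14 and 3 counts in knockdown and 6, 11 and 3 in control, had one of 0.26 (95% interval −1.33 to 1.85). The STS interval takes in a fall of a log2 unit but not a rise of that size. The AKR1C3 interval takes in both, so such differences were not excluded at this depth.

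Rescue was then compared with knockdown, to ask which enzymes differed where UGT2B28 was high; both comparisons share the knockdown libraries. None of the 9 tested members was called by edgeR, DESeq2 or limma voom. In edgeR 2 of them, STS and HSD17B14, had an unadjusted p under 0.05, as did 4203 of all 18389 genes tested. Of all genes tested 10.1% were called, 5.20% as higher and 4.88% as lower. The median log2 fold change was −0.10 for the members and 0 for all genes, and the median absolute one was 0.19 for both. For SRD5A3 the 95% interval of the log2 fold change was −0.17 to 0.19, and for HSD17B10 −0.42 to 0.09.

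STS, the sulphatase that frees DHEA from its sulphate, had the largest fold change among members in this comparison. It had 55, 31 and 88 counts in rescue and 42, 26 and 14 in knockdown, or 2.41 ± 1.05 CPM in rescue and 1.11 ± 0.478 CPM in knockdown. Rescue replicate 2 lay within the knockdown range and the other rescue libraries lay above it. The log2 fold change of 1.10 (SE 0.40, adjusted p = 0.078) was called only when rescue replicate 2 (1.41, adjusted p = 0.027) or knockdown replicate 1 (1.46, adjusted p = 0.048) was left out. AKR1C3 had 18, 22 and 8 counts in rescue and 8, 14 and 3 in knockdown, and the groups overlapped (log2 fold change 0.97, SE 0.73, adjusted p = 0.48).

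HSD17B14 had 215, 241 and 318 counts in rescue and 351, 333 and 266 in knockdown, or 10.7 ± 1.13 CPM in rescue and 13.2 ± 0.896 CPM in knockdown, without overlap after scaling (log2 fold change −0.30, SE 0.14, adjusted p = 0.19). HSD17B11 had 75, 76 and 72 counts in rescue and 108, 89 and 90 in knockdown, again without overlap (log2 fold change −0.35, SE 0.24, adjusted p = 0.43). Groups that did not overlap were found for 27.4% of all genes in this comparison. SRD5A1 was at 43.7 ± 3.51 CPM in rescue and 38.3 ± 2.90 CPM in knockdown (log2 fold change 0.19, adjusted p = 0.26). HSD17B6 (−0.17, adjusted p = 0.81) and CYP3A5 (−0.10, adjusted p = 0.89) had log2 fold changes whose sign depended on single libraries.

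**Figure D3:**
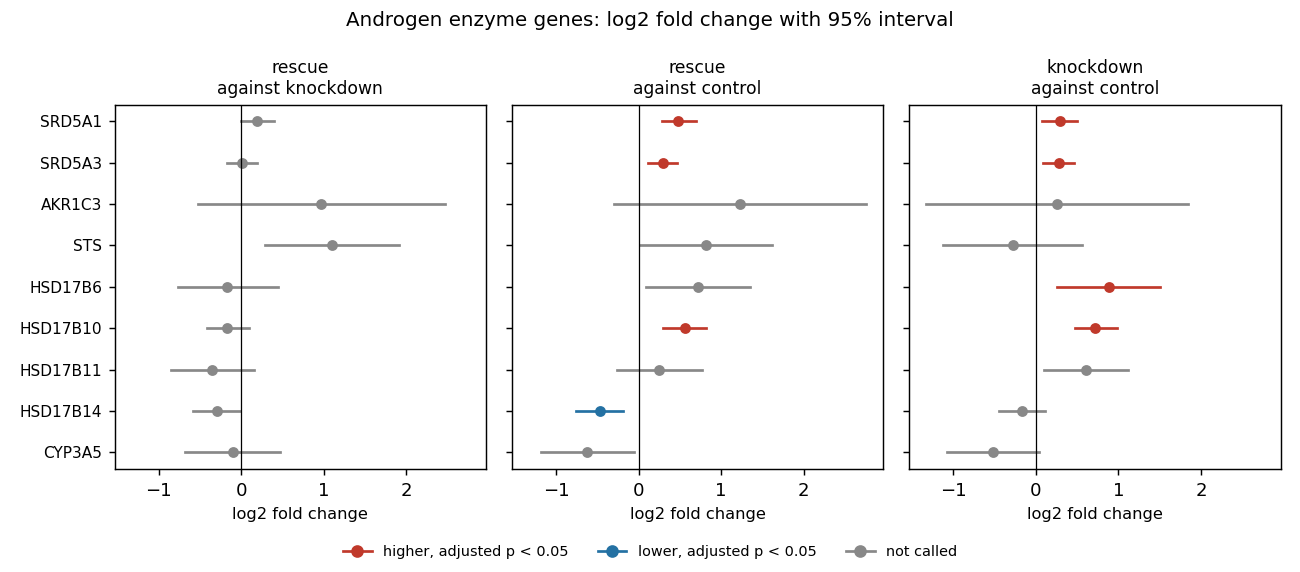
Log2 fold change of the 9 tested androgen enzyme genes (point) with its 95% interval (line) in each comparison, coloured by whether the adjusted p was under 0.05. In rescue against knockdown all genes are grey, and HSD17B10, SRD5A1 and SRD5A3 are red in both comparisons with control.

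Against control, rescue had higher SRD5A1, SRD5A3 and HSD17B10 and lower HSD17B14, and the other 5 tested members were not called. This made 4 calls among 9, where 37.8% of all genes were called, 19.0% as higher and 18.8% as lower, and 0 of the 4 were at least 2-fold, against 9.37% of all genes. The groups did not overlap for 6 of the 9, and for 48.1% of all genes. The median absolute log2 fold change was 0.56 for members and 0.33 for all genes. With sign, the median was 0.48 for members and 0 for all genes. The members with absolute values above 0.56 were AKR1C3 (1.23), STS (0.82), HSD17B6 (0.72) and CYP3A5 (−0.62). All of these had low counts and none was called. This comparison shares its control libraries with the one of knockdown, so the values of both are set side by side and not counted as separate evidence.

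SRD5A1 had 916, 1159 and 1062 counts in rescue and 876, 712 and 615 in control, or 43.7 ± 3.51 CPM in rescue and 31.2 ± 2.88 CPM in control. All rescue libraries lay above all controls, the log2 fold change was 0.48 (SE 0.10, adjusted p = 0.00034), and the call held with each library left out in turn (0.41 to 0.55). HSD17B10 had 663, 852 and 699 counts in rescue and 457, 520 and 482 in control, or 30.9 ± 4.22 CPM in rescue and 21.0 ± 3.59 CPM in control. Its log2 fold change was 0.56 (SE 0.13, adjusted p = 0.00074), with 0.43 to 0.67 when libraries were left out, all called. SRD5A3 was at 52.0 ± 2.56 CPM in rescue and 42.6 ± 3.38 CPM in control (log2 fold change 0.29, SE 0.089, adjusted p = 0.011), a call lost without rescue replicate 2 (adjusted p = 0.068). SRD5A3-AS1 was also called in this comparison, at 14.5 ± 0.954 CPM in rescue and 11.5 ± 0.659 CPM in control (log2 fold change 0.33, adjusted p = 0.047).

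HSD17B14 was the only member called lower in any comparison. It had 215, 241 and 318 counts in rescue and 363, 352 and 324 in control, or 10.7 ± 1.13 CPM in rescue and 14.9 ± 1.38 CPM in control. The groups did not overlap after scaling, and the log2 fold change was −0.47 (SE 0.14, adjusted p = 0.0078), a call lost without rescue replicate 2 (adjusted p = 0.053).

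The low genes were not called in rescue against control. CYP3A5 had 48, 59 and 65 counts in rescue and 134, 62 and 67 in control, or 2.38 ± 0.0434 CPM in rescue and 3.64 ± 1.19 CPM in control. All rescue libraries lay below all controls after scaling, and the log2 fold change was −0.62 (SE 0.28, adjusted p = 0.079), a value that was −0.31 without control replicate 1 and was called without control replicate 2 (−0.76, adjusted p = 0.049). HSD17B6 was at 3.43 ± 0.643 CPM in rescue and 2.07 ± 0.275 CPM in control (log2 fold change 0.72, SE 0.31, adjusted p = 0.067), and was called without rescue replicate 2 (0.048) or knockdown replicate 1 (0.032) and in the fit of these 2 groups alone (0.042). For STS the log2 difference of rescue from control was 0.82 (SE 0.39, adjusted p = 0.10), called without rescue replicate 2 (0.029), and AKR1C3 one of 1.23 (SE 0.75, adjusted p = 0.21). HSD17B11 was at 3.14 ± 0.496 CPM in rescue and 2.62 ± 0.341 CPM in control (log2 fold change 0.25, adjusted p = 0.46).

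STS and AKR1C3 had group means at least 1 log2 unit apart, and the genes with the most similar course over the 9 libraries were looked up for them. For STS they were FAM110C, KIAA0040 and CAMK1D, whose centred log2 CPM values differed from those of STS by a root mean square of 0.343, 0.399 and 0.400. For AKR1C3 they were the keratin KRT19, the syndecan SDC2 and HSD3B7, a dehydrogenase of bile acid synthesis, at 0.482, 0.491 and 0.529. With 3 to 22 counts for AKR1C3 per library, counting error is a large part of such a distance. STS had 14 to 88 counts per library, so counting error enters its distances too. The 3 nearest genes were taken however far they lay, and their distances were not set against those of other genes.

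Most close relatives of the members had few or no counts. AKR1C4 and HSD3B2 had 0 counts in all 9 libraries, and AKR1C1, CYP3A4, CYP3A7, CYP3A43 and HSD17B13 had at most 7 counts in any library. AKR1C2, which reduces dihydrotestosterone to its diol, had 3, 1 and 1 counts in rescue, 2, 13 and 18 in knockdown and 14, 8 and 9 in control. It was called lower in rescue than in control (log2 fold change −2.54, SE 0.97, adjusted p = 0.039) on 5 counts against 31, and that call was lost without any one of 7 of the 9 libraries (adjusted p up to 0.14; −2.37 and 0.10 without control replicate 1), with limma voom (0.062) and with no filter on low counts (0.072). RDH16, a retinol dehydrogenase related to HSD17B6, had more, with 17, 25 and 26 counts in rescue, 61, 17 and 25 in knockdown and 51, 42 and 30 in control, and was not called in any comparison.

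A wider list of 40 other genes of steroid synthesis, sulphation and transport gives the setting. Of these 18 were tested, 8 had no counts in any library, and the other 14 had at most 14 counts in any library. CYP17A1, which makes DHEA from pregnenolone, had at most 4 counts, the placental and gonadal aromatase CYP19A1 had 0, and the DHEA sulphotransferase SULT2A1 had 0. In knockdown against control 6 of the 18 were higher, 2 were lower and the other 10 did not pass. In rescue against knockdown 2 were higher and 1 was lower, and in rescue against control 7 were higher and 4 lower. The share called over all genes in these comparisons was the 32.1%, 10.1% and 37.8% given above.

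CYP11A1, the mitochondrial enzyme that cuts the cholesterol side chain to begin steroid synthesis, had 132, 126 and 148 counts in rescue, 72, 67 and 67 in knockdown and 12, 8 and 22 in control. The 3 groups did not overlap. It was higher in knockdown than in control (log2 fold change 2.25, SE 0.33, adjusted p = 3.8e-06) and in rescue than in control (3.23, SE 0.32, adjusted p = 3.2e-09). In rescue against knockdown the log2 fold change was 0.98 (SE 0.27, adjusted p = 0.018), a call lost without rescue replicate 1 (0.093), rescue replicate 3 (0.054), knockdown replicate 1 (0.063) or knockdown replicate 2 (0.059). CYB5A, a cytochrome that assists the CYP17A1 reaction, was at 102 ± 7.96 CPM in rescue, 122 ± 11.3 CPM in knockdown and 89.6 ± 13.4 CPM in control, and was higher in knockdown than in control (log2 fold change 0.44, SE 0.095, adjusted p = 0.00075). Its log2 fold change of −0.25 in rescue against knockdown had an adjusted p of 0.097 and passed without knockdown replicate 1 (0.042) or control replicate 1 (0.022), with no filter (0.047) and in the fit of these 2 groups alone (0.034).

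**Figure D4:**
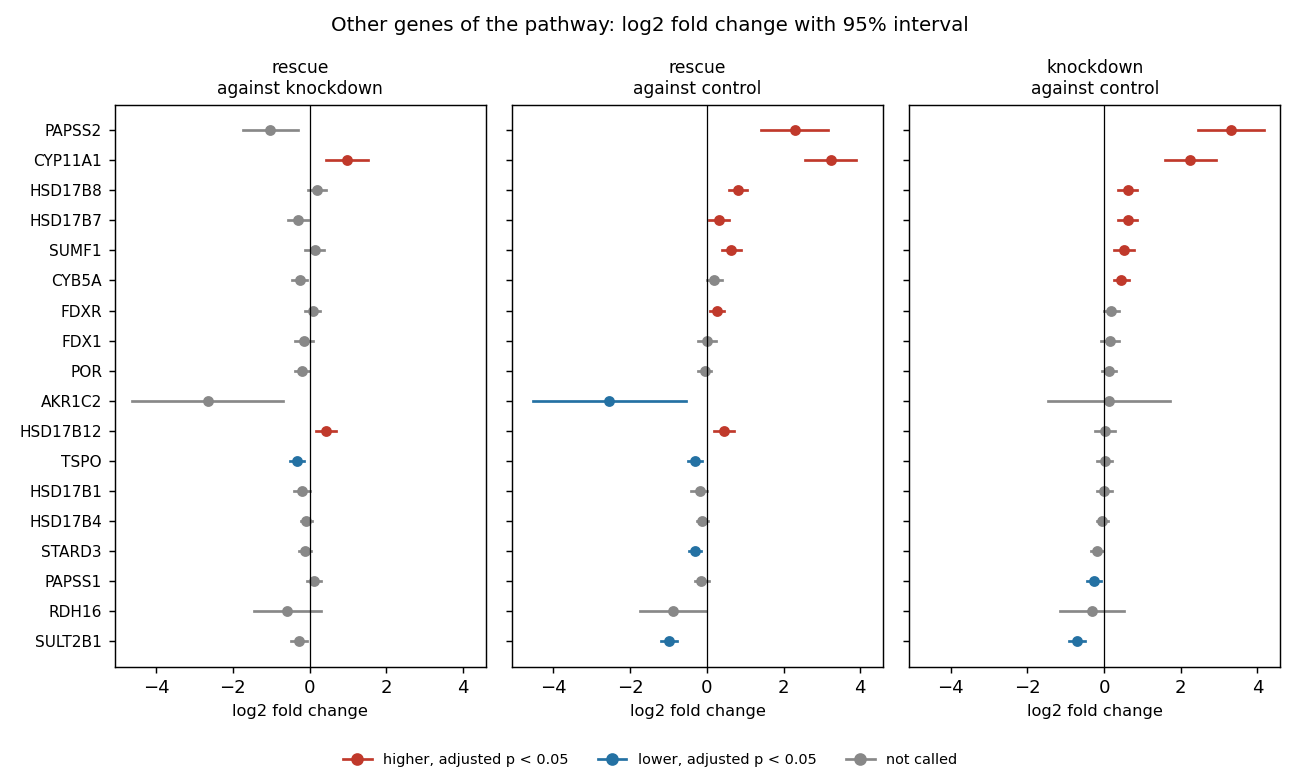
Log2 fold change of the 18 tested genes of the wider steroid pathway list (point) with its 95% interval (line) in each comparison, ordered by the value in knockdown against control. PAPSS2 (3.30) and CYP11A1 (2.25) lie farthest to the right in knockdown against control, and SULT2B1 (−0.71) lies farthest to the left.

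Of the named genes of sulphation, PAPSS2 and SUMF1 were higher in both rescue and knockdown than in control, and SULT2B1 was lower. PAPSS1, the other PAPS synthase and the more abundant one, which the rule for named genes did not take, was lower in knockdown (38.3 ± 0.929 CPM) than in control (45.9 ± 1.02 CPM; log2 fold change −0.26, adjusted p = 0.026). PAPSS2, a synthase of the sulphate donor PAPS, had 22, 45 and 47 counts in rescue, 109, 56 and 64 in knockdown and 6, 8 and 8 in control. It was higher in knockdown than in control (log2 fold change 3.30, SE 0.42, adjusted p = 3.7e-07) and in rescue than in control (2.29, SE 0.43, adjusted p = 9.6e-05), and its lower level in rescue than in knockdown, without overlap, did not pass (−1.02, SE 0.35, adjusted p = 0.061; 0.038 without control replicate 1, and 0.027 in the fit of these 2 groups alone). SUMF1, which activates sulphatases such as STS, was at 21.6 ± 2.78 CPM in rescue, 19.8 ± 1.03 CPM in knockdown and 13.8 ± 1.11 CPM in control, higher in knockdown (log2 fold change 0.52, adjusted p = 0.0018) and in rescue (0.64, adjusted p = 0.00013) than in control. SULT2B1, a sulphotransferase of cholesterol and other hydroxysteroids, was at 21.3 ± 1.54 CPM in rescue, 25.8 ± 2.04 CPM in knockdown and 42.3 ± 2.00 CPM in control, lower in knockdown (−0.71 on the log2 scale, SE 0.10, adjusted p = 3.1e-06) and in rescue (−0.99, SE 0.10, adjusted p = 9e-09) than in control. The calls of PAPSS2, SUMF1 and SULT2B1 against control held with each library left out in turn. For PAPSS1 this was not examined. Exons of LRRN1 (190 bases) and AL138767.1 (146 bases) overlap those of SUMF1 and PAPSS2 on the opposite strand.

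Of the other dehydrogenases of the HSD17B type in the wider list, HSD17B7, HSD17B8 and HSD17B12 were called in at least 1 comparison. HSD17B4 (146 ± 7.13 CPM in rescue, 155 ± 4.35 CPM in knockdown and 158 ± 2.42 CPM in control) and HSD17B1 (42.4 ± 0.641 CPM in rescue, 48.7 ± 2.56 CPM in knockdown and 48.3 ± 7.63 CPM in control) were called in none, and HSD17B2 and HSD17B3 had at most 4 counts in any library. AC067852.2 overlaps the exons of HSD17B1 over 1971 bases on the opposite strand. HSD17B8, of mitochondrial fatty acid synthesis, was at 23.6 ± 2.38 CPM in rescue, 20.5 ± 0.407 CPM in knockdown and 13.4 ± 1.51 CPM in control, higher in knockdown (log2 fold change 0.62, adjusted p = 0.00024) and in rescue (0.81, adjusted p = 3.8e-06) than in control. HSD17B7, of cholesterol synthesis and oestrone reduction, was at 28.5 ± 3.39 CPM in rescue, 35.3 ± 3.88 CPM in knockdown and 23.0 ± 4.08 CPM in control. It was higher in knockdown than in control (0.62, adjusted p = 0.00028), and its call in rescue against control (0.32, adjusted p = 0.046) was lost without control replicate 1 (0.23), control replicate 3 (0.099), knockdown replicate 3 (0.059), rescue replicate 2 (0.20) or rescue replicate 3 (0.11), with DESeq2 (0.054) and with library totals (0.052).

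HSD17B12, of long-chain fatty acid elongation, was at 18.3 ± 1.58 CPM in rescue, 13.5 ± 0.479 CPM in knockdown and 13.3 ± 1.27 CPM in control. It was higher in rescue than in either other group, with a log2 fold change of 0.44 against knockdown (SE 0.13, adjusted p = 0.025) and 0.46 against control (adjusted p = 0.0048). The first of these calls was lost without rescue replicate 2 (0.15) or any 1 knockdown replicate (0.053 to 0.088). Genes on both strands overlap exons of HSD17B12. Reads of those on the opposite strand cannot be told apart from its own without strand. AC068205.2, with 409 counts over the 9 libraries, overlaps it over 490 bases on the same strand, where strand would not separate them. TSPO, a mitochondrial outer membrane protein that binds cholesterol, and STARD3, a cholesterol transfer protein of endosomes, were lower in rescue than in control (log2 fold changes −0.31 and −0.30, adjusted p = 0.01 and 0.0029). Rescue also had lower TSPO than knockdown did (−0.33, adjusted p = 0.022), a call lost without rescue replicate 1 (0.13), rescue replicate 3 (0.059) or knockdown replicate 3 (0.10), and its call against control was lost without rescue replicate 1 (0.068) or control replicate 2 (0.14). STARD3 in knockdown against control (−0.19, adjusted p = 0.072) passed with library totals (0.03) or without control replicate 1 (0.033).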

How the data were processed

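Each library was deposited as 1 table of unnormalized read counts by gene. Tools named in the submitters' processing notes are FastQC, cutadapt, HISAT2 and HTSeq, and the named build is hg19. For tool versions and the strand setting, the sources used here give nothing. Reads assigned to genes were 40.3% to 42.92% of each table, and the 5 summary rows (no feature 48.83% to 50.71%) were left out. Identifiers were matched to symbols for 56414 of 60880 rows from a name table and for 444 from GENCODE 29, whose merged exons also gave lengths and overlaps, since no annotation of the files' build was used. The 10 members and the 40 wider pathway genes, like the tests, were chosen with earlier results of these data known.

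The test was edgeR 4.0.16 under R 4.3.3 (filterByExpr with a minimum count of 10, TMM scaling, a robust quasi-likelihood fit of all 9 libraries with 6 residual degrees of freedom, glmQLFTest). A gene was called at a Benjamini-Hochberg adjusted p under 0.05 over all 18389 tested genes; every adjusted p in the text is from this test unless another tool is named. Standard errors were obtained by dividing each log2 fold change, without its sign, by the root of its F statistic. Levels are CPM from TMM-scaled totals, as mean ± SD over 3 libraries. Alternatives were DESeq2 1.42.0, limma 3.58.1 voom, other scalings, no filter, 2-group fits, a replicate block and leaving out each library. The genes named from the wider list are close relatives of members and the 10 others, called in at least 1 comparison, with the largest log2 fold change. Genes of similar course needed a mean of at least 5 CPM. Floors of counts cover counting error only, while intervals of log2 fold changes come from the fit and include the spread between libraries. In counts simulated for knockdown against control over 17497 genes, only 56 genes were changed 1.5-fold, 73 were changed 2-fold and 71 were changed 4-fold. Recovery was 57.1% at 1.5-fold, 76.7% at 2-fold and 85.9% at 4-fold, and 0.03% of unchanged genes were called. A far larger share of genes, 32.1%, was called in the data for this comparison, so these rates do not carry over to those calls. Some marker genes are not reported here.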

Additional observations from a re-analysis of the deposited data

How the results depend on the processing

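Settings other than leaving out a library kept all counts of called genes within 1.5 times, except the wider pathway genes in rescue against knockdown, which were 3 in the fit of all groups and 5 both when only the 2 groups compared were fitted and with the replicate block. The cause was not tested. When each library was left out in turn, the members called ranged from 1 to 4 in knockdown against control and from 0 to 1 in rescue against knockdown, the wider pathway genes in rescue against knockdown from 1 to 5, and all genes called in that comparison from 1196 to 2364. Signs turned only for differences that were not called. In knockdown against control the log2 fold change ranged from −0.35 to 0.90 for AKR1C3, −0.49 to 0.65 for AKR1C2, −0.08 to 0.14 for TSPO, −0.05 to 0.09 for HSD17B12 and −1.46 to 0.16 for UGT2B28, and in rescue against knockdown from −0.03 to 0.04 for SRD5A3, −0.50 to 0.09 for HSD17B6 and −0.22 to 0.04 for CYP3A5. With library totals HSD17B12 was at −0.01 and TSPO at −0.02, and with limma voom AKR1C2 was at −0.43, all in knockdown against control. The replicate numbers of the labels showed no clear pairing: deviations of same-numbered libraries correlated between −0.037 and 0.077. Still, 5 of 9 libraries correlated best with a library of their own number, a share that was not tested against chance. With the replicate block, the members called were 4, 0 and 4 in knockdown against control, rescue against knockdown and rescue against control, as without it, and the wider pathway genes called were 9, 5 and 12. The block added calls for STARD3 in knockdown against control (adjusted p = 0.048), HSD17B7 (0.033) and CYB5A (0.029) in rescue against knockdown and CYB5A in rescue against control (0.038). Depth limits AKR1C3, STS and HSD3B1 most.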
